A study of Mus musculus with 12 samples.

Results

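The list of H3K27me3 sites from mouse fibroblasts contained 875 sites that were centred in annotated coding sequence away from promoters. They were chosen by 4 criteria applied to the positions of the list in mm10: location on chromosomes 1 to 19, a width under 10000 bp, a midpoint within an annotated coding sequence, and a distance of more than 3 kb between the nearest base of the site and every annotated transcription start site (TSS). The 875 sites were 0.863% of the 101389 sites listed, of which 96090 were on chromosomes 1 to 19. Because width, TSS distance and the coding midpoint selected these sites, their values for these measures are descriptions and were not tested.

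Immortalized mouse embryo fibroblasts (iMEF) of the clone NG3 were analyzed by ChIP-seq, the sequencing of DNA recovered with an antibody from sheared chromatin. All groups, the untreated cells included, carried floxed Ash2l alleles with exon 4 deleted by Cre-ER and lived on human ASH2L fused to a mutant FKBP12 domain and 2 HA tags, which was introduced by a lentivirus. ASH2L belongs to the core of COMPASS/KMT2 complexes, the methyltransferases of histone H3 lysine 4, and dTAG is a small molecule that triggers degradation of the fusion protein. H3K27me3 was measured in 8 libraries, with 2 per group and the groups untreated, dTAG 16 h, dTAG 24 h and dTAG 48 h. Input chromatin was sequenced in 4 libraries, with 2 for the untreated and 2 for the dTAG 48 h group. All groups came from this single clone, so they do not sample different clones. The list pools all samples and gives only positions: it holds no level for any library, so neither an effect of dTAG nor a replicate error could be obtained from it for any site, and the depth behind each site is unknown. The study's own list of sites that changed at each time point was not analysed here.

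H3K27me3 is placed by EZH1 and EZH2 within Polycomb repressive complex 2. In differentiated cells it is best known at the CpG-rich promoters of silent developmental genes, from where it can spread over gene bodies and neighbouring chromatin. Coding exons are short and conserved stretches between introns, and they are on average richer in G, C and CpG than the introns around them. A mark in a coding exon of a repressed gene can therefore belong to a domain over the whole gene rather than to the exon itself, and the positions of neighbouring sites show how far such a domain extends.

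Sequences are given first for 5 stretches, on the strand of the gene and from GRCm38.p6, with each CpG in capitals, because CpG content is compared between kinds of sites after the widths. The first 3 are the wholly coding sites of 200 to 300 bp with the highest CpG observed/expected ratio (the number of CpGs found relative to that expected from the C and G content). The site in exon 5 of 36 coding exons of Col6a6, which encodes a collagen VI chain, at chr9:105780935-105781134 (minus strand) held 9 CpGs in 200 bp, a ratio of 0.693.
Col6a6: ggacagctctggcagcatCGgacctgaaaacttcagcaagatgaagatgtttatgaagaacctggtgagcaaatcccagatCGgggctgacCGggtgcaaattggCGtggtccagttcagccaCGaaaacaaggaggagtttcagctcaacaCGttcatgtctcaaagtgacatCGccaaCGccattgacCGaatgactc
The site in coding exon 4 of 5 of 1700113H08Rik, at chr10:87225901-87226101 (plus strand), held 6 CpGs in 201 bp, a ratio of 0.552.
1700113H08Rik: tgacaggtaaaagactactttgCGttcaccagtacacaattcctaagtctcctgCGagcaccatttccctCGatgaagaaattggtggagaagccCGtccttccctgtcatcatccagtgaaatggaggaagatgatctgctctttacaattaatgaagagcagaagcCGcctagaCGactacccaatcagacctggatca
The site in coding exon 24 of 346 of Ttn, at chr2:76946725-76946960 (minus strand), held 9 CpGs in 236 bp, a ratio of 0.544, and also stands for the gene with the most sites.
Ttn: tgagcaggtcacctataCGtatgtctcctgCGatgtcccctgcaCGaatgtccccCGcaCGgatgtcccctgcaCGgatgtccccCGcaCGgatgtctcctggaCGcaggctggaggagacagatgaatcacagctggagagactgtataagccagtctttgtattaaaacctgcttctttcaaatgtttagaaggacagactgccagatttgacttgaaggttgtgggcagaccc
The remaining 2 stretches are the central 300 bp of the widest site and of the site with the most coding bases They differed strongly in CpG content, although the whole sites, with ratios of 0.331 and 0.372, did not. The centre of the widest site was at chr15:89548167-89548466 (plus strand) in coding exon 21 of 22 of Shank3, a scaffold protein of excitatory synapses. It was coding throughout, with 25 CpGs and a GC content of 69.3%.
Shank3, centre: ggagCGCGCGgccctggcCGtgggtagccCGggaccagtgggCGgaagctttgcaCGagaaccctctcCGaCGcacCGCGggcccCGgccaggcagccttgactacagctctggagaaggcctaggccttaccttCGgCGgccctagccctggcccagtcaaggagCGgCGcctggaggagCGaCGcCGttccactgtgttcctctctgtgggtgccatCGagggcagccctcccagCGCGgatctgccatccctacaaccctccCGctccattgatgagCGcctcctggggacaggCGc
The centre of the site with the most coding bases was at chr2:76917751-76918050 (minus strand), in the last of the 44 coding exons of a shorter Ttn transcript. It too was coding throughout, but had a single CpG and a GC content of 38.3%.
Ttn, centre: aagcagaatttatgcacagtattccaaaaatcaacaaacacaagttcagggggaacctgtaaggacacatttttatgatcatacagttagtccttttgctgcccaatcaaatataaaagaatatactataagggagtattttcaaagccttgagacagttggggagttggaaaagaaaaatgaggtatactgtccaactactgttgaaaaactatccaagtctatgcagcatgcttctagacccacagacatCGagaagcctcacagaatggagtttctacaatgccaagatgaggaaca

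Most of the sites were short. Their median width was 649 bp (quartiles 352 and 1490.5 bp), with a range from 200 bp, the smallest width in the list, to 9776 bp. Merging sites under 1000 bp apart before the selection gave 363 sites with a median width of 1113 bp. At the lower end, 21 sites (2.40%) had exactly 200 bp, compared with 2.63% of all sites on chromosomes 1 to 19. Sites of the same width and TSS limits that were centred in introns (28267 sites) had a median width of 617 bp, and intergenic ones (42791 sites) had 607 bp. The medians of these 3 kinds of sites thus differed by less than 50 bp. The 1112 coding-centred sites within 3 kb of a TSS were wider, with a median of 1194.5 bp.

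Although each midpoint lay in a coding exon, most of the sequence of a typical site was noncoding. The median share of coding bases was 40.5% (quartiles 19.7 and 65.4%), 348 sites (39.8%) were coding in at least 50% of their bases, and 73 sites (8.34%, 95% Wilson interval 6.69 to 10.4%) were coding throughout. The coding share fell with width, as it must where exons are short: it had a median of 65.6% among the 219 sites of 200 to 351 bp and of 15.2% among the 219 sites of 1492 to 9776 bp. A whole coding exon lay inside 657 of the sites (75.1%), and 686 sites (78.4%) touched only 1 coding exon of the transcript, whereas 79 sites (9.03%) touched 3 or more. Intervals here and below cover counting error only and treat neighbouring sites as independent, which they are not.

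**Figure D1:**
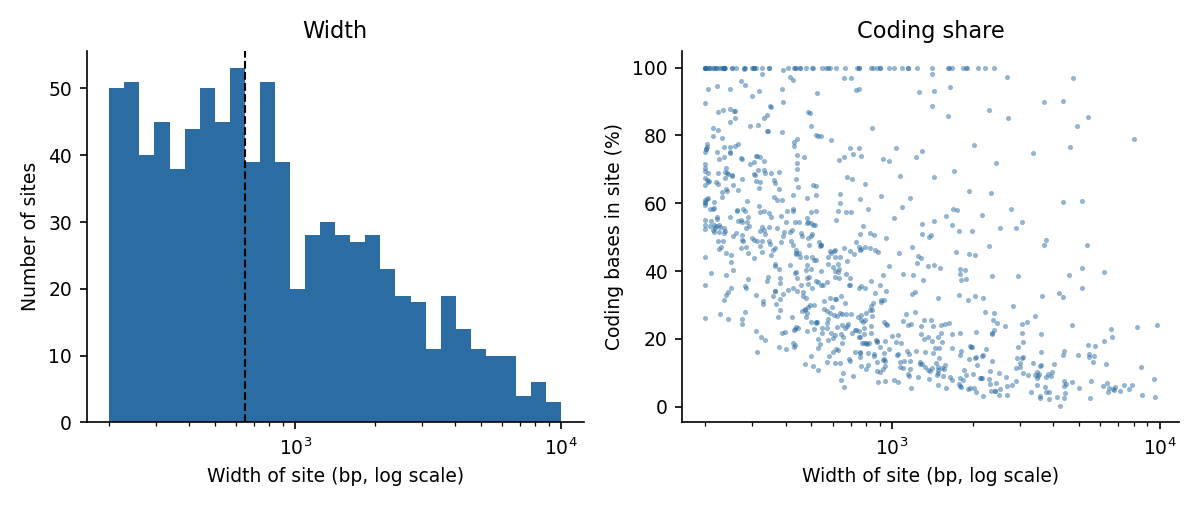
Left: number of the 875 coding-centred sites by width in bp (log scale), with the median of 649 bp as a dashed line. Right: share of coding bases (%) against width (log scale) with 1 point per site, where the shares fall from a median of 65.6% in the 219 narrowest sites to 15.2% in the 219 widest.

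The exons at the centres were near to other coding exons in median length but less often long. The median exon length was 189 bp (quartiles 132 and 348.5 bp), next to 182 bp (127 and 503 bp) for the exon at a coding base that could have held a midpoint, that is, one over 3 kb from every TSS. Exons of at least 1000 bp held 98 midpoints (11.2%, interval 9.28 to 13.5%) and 15.6% of those coding bases, a share above the interval. By rank, 687 sites (78.5%, interval 75.7 to 81.1%) were centred in an internal coding exon, which made up 74.1% of the eligible coding bases. The last coding exon held 141 sites (16.1%, interval 13.8 to 18.7%) but 20.1% of the bases, so that both shares of bases lay just outside the intervals of the site shares. For the last exon this was lost when sites under 1000 bp apart were merged first (19.3%). It was also lost when a coding share of at least 50% replaced the coding midpoint as the criterion (22.0%). First coding exons held 23 sites and single-exon coding sequences held 24. Along the coding sequence the midpoints were spread widely, with a median position of 55.0% and quartiles of 28.5 and 77.7%.

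The sites were richer in CpG than intronic and intergenic sites off promoters. The median CpG ratio was 0.259 (95% interval 0.249 to 0.270), compared with 0.180 for the intronic and 0.174 for the intergenic sites. Coding-centred sites within 3 kb of a TSS had a higher median of 0.277. The GC content moved less, with a median of 49.7% in coding-centred sites, 47.7% in intronic and 47.5% in intergenic ones. Eligible coding bases as a whole had a GC content of 50.4%. Their CpG ratio was not computed, so the sites cannot be compared in CpG with other coding sequence. Repeat-masked bases took a median of 7.21% of the sites against 13.0% in intronic sites. The 219 narrowest sites, which were mostly coding, had a median ratio of 0.294, and the 219 widest had 0.230.

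CpG-island-like sequence (a GC content of at least 50% with a ratio of at least 0.6 over the whole site) was rare. It was found in 14 of the 875 sites (1.60%, interval 0.955 to 2.67%), in 0.110% of the intronic sites, and in 10.4% of the coding-centred sites near a TSS. Among sites of at least 500 bp the highest ratios were found in Garem2 (0.887, internal exon, 1231 bp), Cilp2 (0.874, last exon, 3352 bp), Zc3h12d (0.761, last exon, 733 bp), 1700003E16Rik (0.710, last exon, 548 bp) and Slc5a4a (0.666, internal exon, 797 bp). The first 4 of them had a GC content of at least 63.5%, whereas the site in Slc5a4a had 48.4% and so fell outside the definition. The site in Cilp2, a protein related to a component of the cartilage matrix, held 311 CpGs. Sall4, a zinc finger transcription factor of pluripotent cells, was the only gene with 2 sites among the 14, and was singled out after its values were seen.

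**Figure D2:**
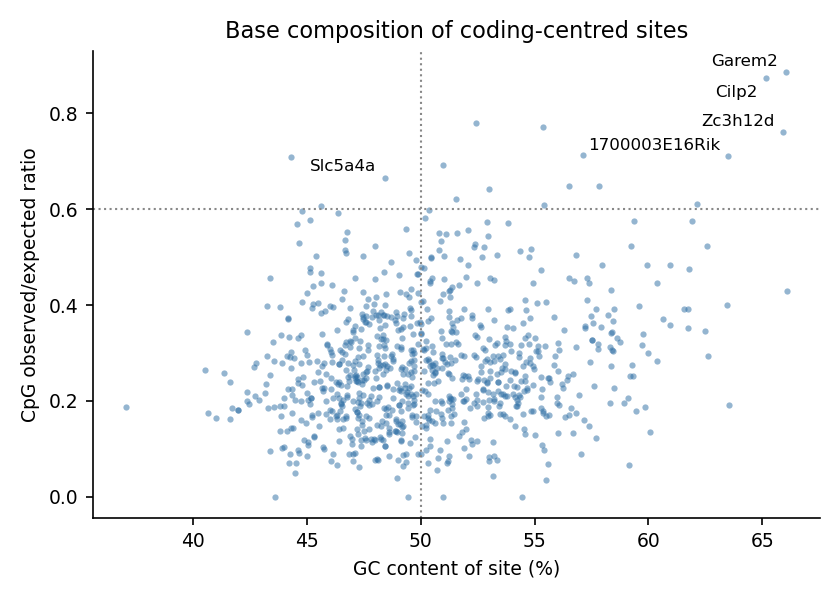
CpG observed/expected ratio against GC content (%) of each of the 875 coding-centred sites, with dotted lines at a ratio of 0.6 and a GC content of 50%. Only 14 sites lie at or above both lines, and 4 of the 5 named sites are among them.

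Coding bases were more often inside listed sites than intronic or intergenic bases, all over 3 kb from every TSS. Distances beyond this limit were not matched, and the median distance to the nearest TSS was 9825 bp for coding-centred, 14850 bp for intronic and 17677 bp for intergenic sites. There were 50.3 coding-centred sites per Mb of eligible coding sequence (95% Poisson interval 47.0 to 53.7), 33.8 per Mb of intron and 38.2 per Mb of intergenic sequence, which is 1.49 and 1.32 times as many. Counting bases in place of midpoints and sites of any width, 10.9% of eligible coding bases and 6.24% of intronic bases were inside sites. Restricted to sequence without repeat masking, the shares were 11.0 and 7.21%.

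Much of this difference lay between genes rather than between the exons and introns of 1 gene. Among 9344 genes with at least 500 eligible coding and 2000 eligible intronic bases, 10.6% of the coding and 6.15% of the intronic bases were inside sites. When the intronic share of each gene was weighted by the number of its coding bases, the intronic share was 9.24%. Coding sequence was covered more than intron in 1291 genes and less in 1362, and the shares were equal, nearly always at 0, in 6691 genes. The pooled intronic share gives most weight to the genes with the longest introns.

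The share of sequence inside sites also declined with distance from coding bases over the first 3000 bp, and this decline depended on the intron. Without repeats, it was 11.0% for coding bases, 10.7% for intronic bases 1 to 100 bp from the nearest coding base, 8.49% at 401 to 500 bp and 7.27% at 2001 to 3000 bp, and it was then 7.75% at 4001 to 5000 bp and 6.38% beyond 10000 bp. In host genes, which were selected for sites in coding exons, the share fell from 44.7% in coding bases to 40.7% at 1 to 100 bp, and to 28.8% at 2001 to 3000 bp. In the other genes it was 7.27% in coding bases, 7.39% at 1 to 100 bp and 5.39% at 2001 to 3000 bp. Within introns of at least 10 kb, the share was 6.999% at 1 to 100 bp, 6.41% at 401 to 500 bp, 7.04% at 2001 to 3000 bp, 7.52% at 4001 to 5000 bp and 6.18% beyond 10000 bp, so that it fell less over the first 500 bp than over all introns and was back near its first value at 2001 to 3000 bp. Neighbouring bases share the same sites and genes, and the curves are descriptions.

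**Figure D3:**
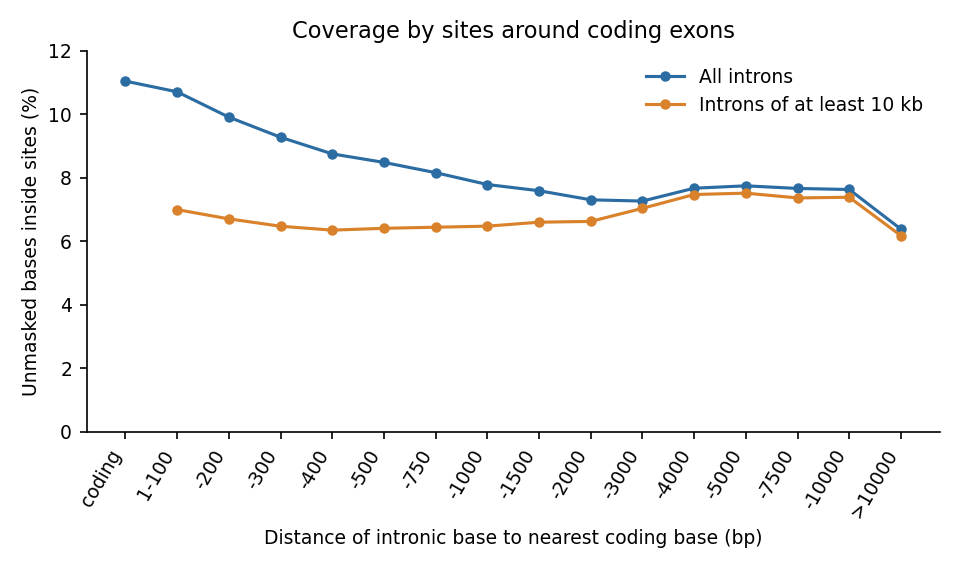
Share of bases without repeat masking that lay inside listed sites of any width (%), for coding bases and for intronic bases by their distance from the nearest coding base (bp, each label giving the upper end of a bin). All introns decline from 10.7% next to coding bases to 7.27% at 2001 to 3000 bp and reach 7.75% at 4001 to 5000 bp, whereas introns of at least 10 kb stay between 6.18 and 7.52% throughout.

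The coding-centred sites rarely stood alone. The nearest other site was at a median distance of 526 bp (quartiles 317 and 1176.5 bp), 71.7% had another site within 1 kb, and 87.5% within 3 kb. The same shares were 72.8 and 88.1% for intronic sites. A site of at least 10 kb lay within 10 kb of 10.4% of the coding-centred sites and of 10.6% of the intronic ones. Only 30 of the 875 sites (3.43%, interval 2.41 to 4.85%) had no other site within 10 kb, compared with 4.46% of intronic and 6.08% of intergenic sites. The most remote site, also singled out after its values were seen, lay 130014 bp from the next, in Gm15922, which is annotated as a polymorphic pseudogene. The site in 1700003E16Rik, with its CpG-rich last exon, had no other site within 44221 bp. Of the 30 lone sites, 10 were in genes with a site at their start.

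The 875 sites lay in 670 genes, 669 of them annotated as protein-coding. Of the 670 host genes 539 held a single coding-centred site, 131 (19.6%) held 2 or more, and 35 held 3 or more. The 131 genes with several held 338 of the sites, so the sites are not independent of each other. Host genes had a median length of 47639 bp and 1595 eligible coding bases, compared with 29105 bp and 819 bases in the other 13509 genes with eligible coding sequence. The 2215 other genes with an intronic site off promoters were longer than the host genes, at a median of 51102 bp, but had fewer eligible coding bases, 1027.

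H3K27me3 sites in most host genes were not limited to the selected exons. A median of 32.9% of the gene body was inside sites (quartiles 15.5 and 52.2%), and when the coding-centred sites themselves were removed from the gene this share was 29.8%. The median host gene overlapped 9 listed sites, but 30 host genes overlapped none other than their coding-centred sites. In 9354 of the 13509 other genes (69.2%) no base was inside a site. At least 50% of the gene body was inside sites in 187 host genes (27.9%) and in 8.01% of the other genes, but in 22.8% of the 2215 other genes with an intronic site off promoters and in 26.0% of the 4155 other genes with any site.

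Sites were also found at the starts of most host genes, a measure that the selection did not use directly because all coding-centred sites were over 3 kb from a TSS. A listed site of any width lay within 1 kb of a TSS of the same gene in 539 of 670 host genes (80.4%, interval 77.3 to 83.3%), compared with 26.8% of the other 13509 genes (interval 26.0 to 27.5%). Among 2215 other genes that held an intronic site off promoters, the share was 75.3% (interval 73.5 to 77.1%), and among the 4155 other genes with a site anywhere in the body it was 81.8% (interval 80.6 to 82.9%). Genes with several transcripts have several TSSs, some of them far inside the gene. When only the outer 5′ end of the gene was counted, the share was 69.1% in host genes, 65.8% in the other genes with an intronic site, 73.1% in the other genes with any site and 24.1% in all other genes. A site at the start can itself place a gene in the group with a site anywhere in the body, so the share in that group is a description only, and the differences between the groups were not tested.

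The presence of a site at the start rose with the share of the gene body inside sites. In host genes it was 36.2% where up to 5% of the body was inside sites (58 genes), 61.5% between 5 and 10%, 68.6% between 10 and 20%, 83.2% between 20 and 40% and 96.3% above 40% (270 genes). In other genes with an intronic site it was 51.1%, 63.1%, 77.1%, 87.5% and 94.2% in the same classes. The 95% intervals of host genes and of the other genes overlapped in each class, and the differences were not tested. A site at the start itself adds to the share of the body.

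**Figure D4:**
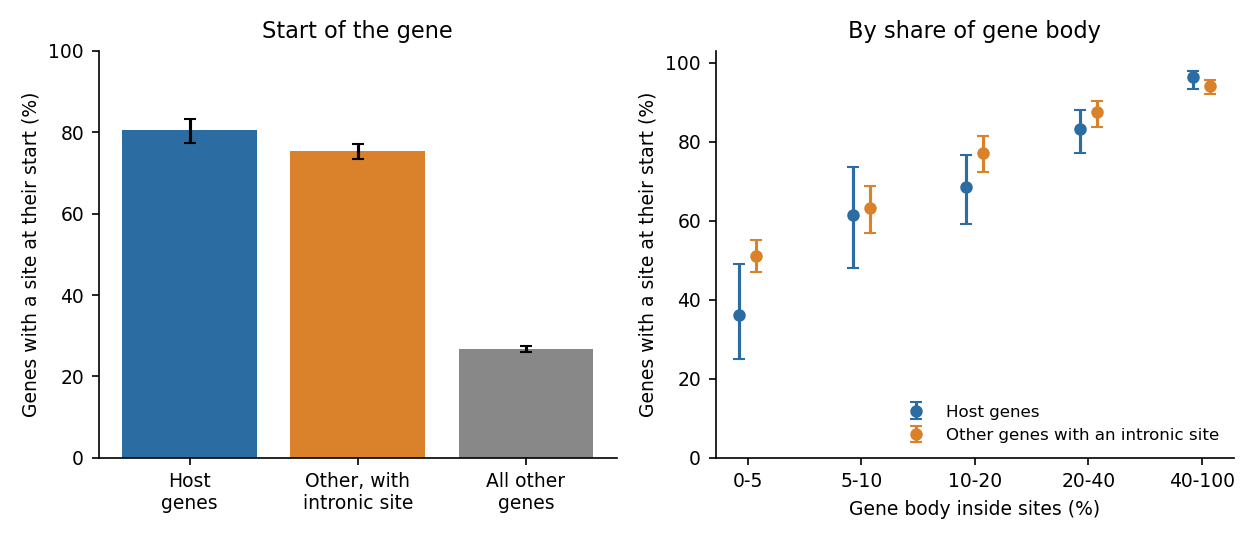
Left: share of genes (%) with a listed site within 1 kb of a TSS of their own, for 670 host genes (80.4%), 2215 other genes with an intronic site (75.3%) and all 13509 other genes (26.8%), with 95% Wilson intervals as bars. Right: the same share by the percentage of the gene body inside sites, where it rises from 36.2 to 96.3% in host genes and from 51.1 to 94.2% in other genes with an intronic site.

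The 153 coding-centred sites in genes without a site at the start were somewhat narrower and less rich in CpG. Their median width was 531 bp and their median CpG ratio 0.214, compared with 678.5 bp and 0.268 for the 722 sites in genes with one. The nearest other site was 715 bp away at the median, against 487 bp, and 20 of the 153 (13.1%) had none within 10 kb, against 10 of the 722 (1.39%). A site at the start can itself be the neighbour, and the median distance of the 722 sites to the nearest TSS was 9887.5 bp. The contrast in neighbours therefore follows in part from the grouping and is a description only. The quartiles of width overlapped, at 313 to 1020 bp and 365 to 1570.5 bp.

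The gene with the most sites was Ttn. Ttn, which encodes the giant sarcomere protein titin, held 23 coding-centred sites of 224 to 8026 bp and 68 listed sites in all. Next was Myh4, a fast skeletal myosin heavy chain, with 7 sites, and Myh2, another fast myosin, with 5. Ryr3, a calcium release channel, held 6, and 5 each were found in Reln (reelin, a secreted guide of neuronal migration), Dnah5 (an axonemal dynein heavy chain) and Wdfy4 (a protein known from antigen cross-presentation by dendritic cells). Hydin, a protein of the ciliary central pair, Fat2, a large atypical cadherin, and Dnah2, another axonemal dynein, held 4 each. A further 3 genes, Cadps, 5430419D17Rik and Dnah9, also held 4 sites each and ranked lower by summed width. The 10 genes together held 68 sites (7.77%). Each had a listed site within 1 kb of a TSS of its own, and between 22.1% (Ryr3 and Reln) and 49.5% (Hydin) of the gene body was inside sites, whereas the share was 8.03% in Dnah9.

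The sites in Ttn were rich in coding sequence. Of the 23 sites 17 were at least 50% coding and 4 were coding throughout, and 69.4% of all their bases were coding. They extended from coding exon 3 to exon 286 of the 346 exons of the longest transcript. The CpG ratios ranged from 0.184 to 0.574, and 21 of the 23 were above the median of all coding-centred sites. In the whole gene 33.2% of eligible coding bases and 27.3% of eligible intronic bases were inside sites. The outer 5′ end of Ttn was 7454 bp from the nearest site, and its start counted as marked only through one of its 16 annotated TSSs farther inside. Chromosome 2 held 92 coding-centred sites with Ttn and 69 without it. Per Mb of eligible coding sequence, the chromosomes ranged from 23.5 sites (chromosome 18) to 64.2 (chromosome 14).

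Myh4 and Myh2 lie in a cluster of skeletal myosin genes on chromosome 11, a family that was singled out after its values were seen. The 7 sites of Myh4 had 317 to 1430 bp, centred in coding exons 11 to 36 of 38, and the 5 sites of Myh2 had 362 to 1691 bp, centred in exons 3 to 35 of 38. Myh1 and Myh8 held 2 each, Myh13 held 1, and Myh11 on chromosome 16 held 1. Coding bases were inside sites more often than intronic ones in both leading genes, with 84.3 and 35.4% in Myh4 and 62.8 and 29.1% in Myh2, although hosts were selected by sites in their coding sequence. The coding exons of these paralogs are very similar, and the details of the read filter, which followed ENCODE recommendations, were not given, so the assignment of sites among them is uncertain.

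**Figure D5:**
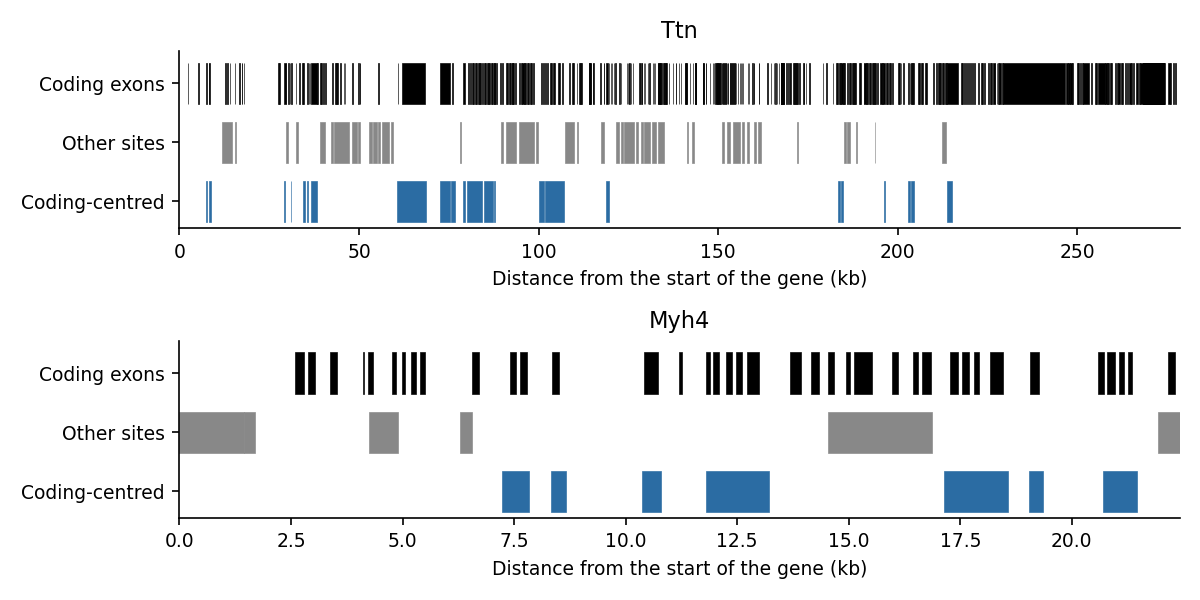
Coding exons (black), coding-centred sites off promoters (blue) and all other listed sites (grey) along Ttn and Myh4, in kb from the outer start of each gene. The 23 sites of Ttn lie in runs next to other sites, mostly in the first part of the gene, and the 7 sites of Myh4 lie well inside the gene, whose outer start is covered by another site.

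The widest sites reached well beyond the exon at their centre. The site at Shank3 (9776 bp) held 2342 coding bases, or 24.0% of its length. It was followed by sites at Ebf4 (9613 bp), a transcription factor of the early B-cell factor family, and Gsdmc3 (9516 bp), a gasdermin with close paralogs, to which the same uncertainty applies. Sites of 7341 to 8627 bp were found at Aldh1a2, which makes retinoic acid, at Apol10b, at Pigr, the receptor that carries polymeric immunoglobulins across epithelia, at Ttn, at Csmd2, at Ghrhr, the receptor for growth hormone-releasing hormone, and at Tfap2b, a developmental transcription factor. In 6 of these 10 sites less than 10% of the bases were coding, with the lowest share of 2.94% at Ebf4. The share of the gene body inside sites was between 77.6 and 88.7% in Tfap2b, Aldh1a2, Apol10b, Pigr and Shank3, and between 7.47 and 44.0% in the other 5 genes, Csmd2, Ebf4, Gsdmc3, Ttn and Ghrhr. These shares include the wide sites themselves. With the coding-centred sites removed, the share was 30.1% in Apol10b, 15.1% in Ghrhr and 0 in Gsdmc3. It remained between 70.3 and 86.6% in Tfap2b, Aldh1a2, Pigr and Shank3, and was between 5.99 and 20.2% in Csmd2, Ebf4 and Ttn.

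Of the 10 sites with the most coding bases 9 were centred in exons of 2646 to 8019 bp, and the last of them, in Ttn, was centred in an exon of 279 bp and spanned several. The Ttn site of 8026 bp came first with 6341 coding bases. Muc5b, a gel-forming mucin of airway mucus, had a site with 4618 coding bases in coding exon 31 of 49, and Zdbf2, an imprinted gene, one with 4611 in its last exon. Fat2 followed with 4051 bases and Nes, which encodes the intermediate filament nestin of neural progenitors, with 3920 in the last of its 4 coding exons. The remaining sites of the first 10 held between 2622 and 3545 coding bases in 3425401B19Rik, Exph5, Trank1 and again Ttn, with 2 further sites. Across the 98 sites centred in exons of at least 1000 bp, the median width was 1412 bp and the median coding share 95.6%.

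Gene families differed widely in the number of coding-centred sites for the coding sequence they offered. Over all 14179 genes with eligible coding sequence, 4.73% were hosts and there were 50.3 sites per Mb of eligible coding sequence. Among giant muscle genes 5 of 7 were hosts, with 33 sites and 195 per Mb, of which Ttn contributed 23 and Ryr3 6. Axonemal dyneins, the motors of motile cilia, were hosts in 8 of 15 genes, with 20 sites and 124 per Mb, led by Dnah5, Dnah2 and Dnah9. Ion channels were hosts in 15 of 96 genes with 17 sites and 93.2 per Mb, including 2 in the sperm potassium channel gene Kcnu1 and 1 in Kcng2. Adhesion GPCRs and large cadherins were hosts in 7 of 34 genes with 10 sites and 90.7 per Mb, among them Fat2, Celsr1 and Dchs1.

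The remaining lists held at most 8 sites each, apart from the myosin heavy chains described with Ttn, which had 18 sites in 6 of 14 genes. Collagens were hosts in 6 of 42 genes with 8 sites (60.3 per Mb), and 3 of the hosts were the collagen VI genes Col6a5, Col6a6 and Col6a4. Glutamate receptor genes, for which the symbol search also returned the receptor-binding protein gene Grid2ip, were hosts in 3 of 25 genes (59.3 per Mb), with Grin2b and Gria1 as the others. Keratins had 3 sites in 37 genes with 23.1 kb of eligible coding sequence, or 130 per Mb, more than the axonemal dyneins but from only 3 sites, with 1 site each in Krt87, Krt71 and Krt2. Axon guidance genes had 3 sites in 57 genes (27.5 per Mb), 2 of them in Plxna4 and 1 in Epha10. Muc5b was the only host among 10 mucins and Lamc3 among 11 laminins. These counts are small and describe the list only.

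Other families held few sites for their coding sequence, or too little coding sequence to compare. C2H2 zinc finger genes were hosts in 5 of 359 genes (9.66 per Mb), among them Zfp819, Zfp663 and Zfp941. The vomeronasal receptors had a single site, in Vmn2r83, in 126 genes (3.86 per Mb). A site lay at the start of 0.794% of these 126 genes and of 12.3% of the 359 zinc finger genes. The share was 29.3% over all genes with eligible coding sequence. Both are families of paralogs, as are the olfactory receptors, so the uncertainty stated for the myosin genes applies to them. The olfactory receptors had 2 sites, in Olfr67 and Olfr56, in 56 genes (43.9 per Mb), which is near the density over all genes. Homeobox transcription factors, classical Polycomb targets, had 1 site, in Pax3, in 43 genes with eligible coding sequence (45.2 per Mb), which is also near that density. Of the 43 genes 36 had a site at their start, and a median of 93.5% of their bodies was inside sites. These genes are compact and offered 22.1 kb of eligible coding sequence in total. No coding-centred site was found in 11 fibroblast genes (19.6 kb of eligible coding sequence), 5 housekeeping genes (1.56 kb), 9 genes of the COMPASS complexes (29.0 kb), 17 Polycomb genes (17.4 kb) or 3 clustered protocadherins (0.864 kb). The eligible sequence of each list was short beside the density over all genes, 50.3 sites per Mb, so the counts of 0 are not a result about these genes.

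Sites on either side of the limits of the selection were as follows. Just under the width limit were the sites at Shank3, Ebf4 and Gsdmc3, and just above it those centred in coding exons of Barx2 (10402 bp), Spon1 (10473 bp) and Hmcn2 (11109 bp). Of the coding-centred sites over 3 kb from a TSS, 13 were excluded by width. Just past 3 kb from a TSS were sites in Rbpjl (3023 bp), Ccdc155 (3026 bp) and Cilp2 (3036 bp), and just within it sites in Otulinl (2962 bp), Defb19 (2956 bp) and Ccr4 (2955 bp).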

How the data were processed

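H3K27me3 ChIP-seq was done on iMEF cells in 8 libraries with 4 inputs. According to the study's methods, reads were trimmed with Trim Galore, aligned with BWA to mm10 (GRCm38.p6), filtered with samtools as recommended by ENCODE, merged with Picard and called as broad peaks with MACS (MACS2 in the submitters' processing notes). Libraries were normalized to the lowest coverage, at a step that was not stated. Versions, cutoffs, the joining of peaks between samples and the details of the read filter are not given in the sources used here. The deposited list gives a chromosome, start and end per site over all samples, which are positions and not measurements. No per-sample column was left unused (0 columns). The tests between time points fixed in the design needed values per library and were not run.

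Starts were read as counted from 0 and are printed counted from 1. Genes, coding sequences and TSSs were taken from GENCODE release M21 of GRCm38, an earlier release than the one the study cites, so that some coding exons and TSSs may differ, and bases and repeat masking from GRCm38.p6. The midpoint was assigned to the transcript with the longest coding sequence. Eligible bases lay over 3 kb from every TSS, outside assembly gaps. A gene had a site at its start if any listed site came within 1 kb of a TSS of one of its transcripts. Shares carry 95% Wilson intervals, densities Poisson intervals and medians binomial order-statistic intervals. Scripts used Python with numpy, pandas and scipy and were tested on simulated data. The genes named were, by rule, the 10 with the most sites, those of the 10 widest sites, of the 10 with the most coding bases and of the 5 with the highest CpG ratio among sites of at least 500 bp, and up to 3 genes per family list, of which some are not reported here. The sites and the lists were chosen with earlier results of these data known. Alternatives covered the start convention, TSSs, coding transcripts, width limits, the coding criterion and merging of sites. Chromosome X, chromosome Y and scaffolds were not analysed here.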

Additional observations from a re-analysis of the deposited data

How the results depend on the processing

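Of 68 values recomputed under alternative settings, 46 stayed within the 95% interval of the reported value (or, for the number of sites, within 1.5 times it) and 22 moved beyond it. The coding-over-intronic density ratio, recomputed only for sites under 5000 bp and for sites of at least 500 bp, was 1.48 and 1.55. Merging sites under 1000 bp apart before the selection left 363 sites with a median width of 1113 bp, a coding share of 35.6%, a GC content of 48.9%, a CpG ratio of 0.242, 19.3% in the last coding exon and 73.4% of host genes with a site at the start. Requiring at least 50% of a site to be coding, in place of a coding midpoint, gave 368 sites with a median width of 358 bp. They had a coding share of 70.7%, a GC content of 51.1%, a CpG ratio of 0.305 and 22.0% in the last coding exon. A site with a noncoding midpoint was ranked by its coding base nearest to the midpoint. The deficit of last exons against the 20.1% of bases was lost under this criterion, as it was after merging. Sites of at least 500 bp numbered 535, with a median width of 1199 bp, a coding share of 24.4%, a GC content of 49.0% and a CpG ratio of 0.244. With sites selected against TSSs of protein-coding transcripts only, the GC content was 50.2% and 83.3% of host genes had a site at the start. In the alternatives of TSSs, width, coding criterion and merging, only the set of host genes changed for this share. The site at the start was still counted over all TSSs of a gene and all listed sites. Measured from the midpoint, the TSS limit gave a median width of 728 bp. Counting only the outer 5′ end of a gene, an alternative chosen after seeing the data, gave 69.1% of host genes. The starts read from 1, the limit of 5000 bp and both restrictions of coding transcripts moved none of their values beyond these limits. Low depth cannot be told from absence, since the list gives no counts. No paired analysis was possible because the list holds no value per library, and leaving out replicates was not possible for the same reason.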
